A study of Rattus norvegicus with 22 samples.

Results

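Type B intercalated cells, annotated IC_B by the authors, were followed across treatments in single-nucleus RNA-Seq of rat kidney. They were chosen as all nuclei with that annotated cell type, and there were 6204 of 310282 nuclei, a pooled share of 2.00% (exact 95% confidence interval 1.95 to 2.05%, counting error only). They were 46.6% of the 13306 intercalated nuclei, the rest being type A (IC_A). In this assay, nuclei are caught in droplets and their transcripts are labelled with a barcode for each droplet. The files used here hold the library, treatment, cell type and UMAP position of each nucleus and no gene values, so Slc26a4, the marker of IC_B, and the markers of other types were not checked.

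The rats were male Sprague-Dawley. Controls had a sham operation that left both kidneys in place, and received sesame oil and tap water. The other 4 groups are labelled as uninephrectomized and given weekly subcutaneous deoxycorticosterone acetate (DOCA, 50 mg/kg), a mineralocorticoid, with salt in the drinking water. The DOCA group also received vehicle by gavage, and the DOCA+Finerenone, DOCA+Spironolactone and DOCA+Amiloride groups received 10, 50 and 20 mg/kg of drug per day. A difference between DOCA and control thus holds surgery, steroid and salt together, which cannot be told apart. The annotation lists 22 libraries, 2 with amiloride and 5 in each other group, and these numbers equal those of the samples. The amiloride and control samples were all from 6 weeks, whereas 1 sample in each other group was from 3 weeks. Libraries could not be assigned to single samples, so both times were combined.

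Intercalated cells lie between principal cells in the connecting tubule and collecting duct. Type A cells secrete acid. Type B cells secrete bicarbonate and take up chloride through pendrin, the apical exchanger encoded by Slc26a4, and mineralocorticoids are known to raise pendrin in this segment. Finerenone and spironolactone block the mineralocorticoid receptor, the first as a nonsteroidal and the second as a steroidal compound, and amiloride blocks the epithelial sodium channel of principal cells.

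Libraries held 759 to 48403 nuclei. An Old or New tag stands in the names of 11 libraries (tagged), among them both from amiloride, and is missing from 11 others (untagged). What the tag stands for is not given in the sources used here. The names of 5 libraries, 1 per treatment, carry a mark that was read here as Multiome. That reading rests on the names alone and could not be checked against the samples. A pair of libraries shared a name stem within control and another pair within spironolactone, while 4 of the 16 name stems stood under more than 1 treatment, 3 of them under both DOCA and finerenone. What a stem stands for is not given in the sources used here, so a stem was not read as a rat. Of 300310 barcode sequences, 3.26% occurred in more than 1 library, and no pair of libraries shared more than 3.12% of the smaller one. Among the 398 nuclei elsewhere that carried the barcode of an IC_B nucleus, 6 were IC_B.

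IC_B was the 12th most numerous of 16 annotated types. Its share of all nuclei ranged over libraries from 0.828% to 4.23% (median 1.96%), and its share of intercalated nuclei from 21.9% to 60.5% (median 40.7%). The variance of the share of all nuclei between libraries was 47.3 times that of counting alone, and that of the share of intercalated nuclei 26.4 times. Both ratios include differences between treatments. Over the 16 types, the ratio for the share of all nuclei ran from 26.0 to 3475, so that of IC_B was not unusually high. IC_B outnumbered IC_A in 6 of 22 libraries, all of them tagged, and outnumbered principal cells in 1. Only 3 libraries held fewer than 50 IC_B nuclei, with 24, 18 and 7, so their shares are the least precise. Fewer IC_B cells and poorer recovery of their nuclei cannot be told apart in these shares.

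The first comparison asked whether the IC_B share differed between DOCA and control, which differ in surgery and salt as well as steroid. In order of library size, IC_B made up 1.94, 1.20, 2.17, 3.16 and 1.98% of all nuclei in the control libraries. In the DOCA libraries it made up 1.01, 3.30, 1.47, 2.83 and 1.98%. The groups overlapped almost entirely, and the lowest and the highest of these 10 values were both from DOCA. The means were 2.09 ± 0.702% (SD, n = 5) in control and 2.12 ± 0.944% (SD, n = 5) in DOCA. The difference of 0.0302 percentage points was far smaller than the spread between libraries (two-sided exact permutation test over libraries, p = 0.960, Benjamini-Hochberg adjusted over 16 types 0.960). Among the 16 types, 5 (31.2%) had an unadjusted exact p under 0.05 in this comparison, and IC_B had the highest p of all. The difference was 0.156 points in untagged and -0.159 points in tagged libraries, and -0.0391 on the log2 scale. No type passed after adjustment, and the smallest p that 5 against 5 libraries allows is 0.00794, which a single changed type would carry to 0.127 after adjustment. These p-values measure only the spread between libraries, which may be technical.

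**Figure D1:**
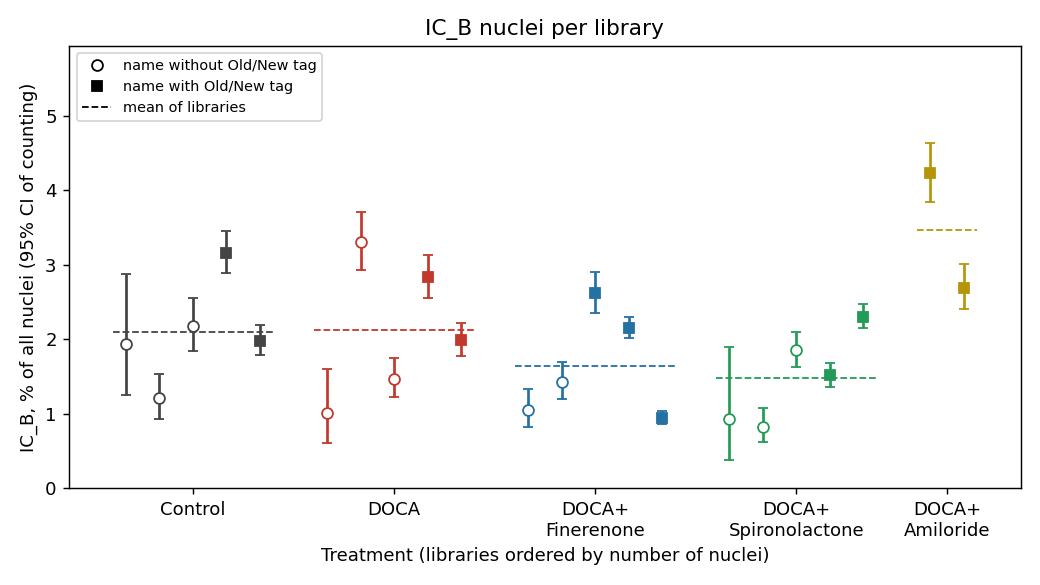
IC_B nuclei in percent of all nuclei of a library (y axis), by treatment (x axis, libraries ordered by number of nuclei). Open circles are libraries without and filled squares libraries with an Old or New tag in the name, bars are exact 95% confidence intervals of counting, and dashed lines are means over libraries. Each group overlaps the DOCA group, whose libraries run from 1.01% to 3.30%.

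Among intercalated nuclei, IC_B took 28.6, 22.1, 36.5, 54.4 and 36.5% in the control libraries. In the DOCA libraries it took 29.5, 47.5, 34.6, 49.2 and 37.2%. The control range enclosed the whole DOCA range. The means were 35.6 ± 12.1% and 39.6 ± 8.46% (SD, n = 5 each), and the difference of 3.95 points did not pass the test (exact permutation p = 0.563, adjusted over 4 comparisons 0.751). It was 8.13 points in untagged libraries (3 against 3) and -2.32 points in tagged libraries (2 against 2), so its direction depended on the set. IC_A, the acid-secreting counterpart, was 3.79 ± 0.832% of all nuclei in control and 3.03 ± 0.483% in DOCA (SD, n = 5 each, exact permutation p = 0.127).

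The mineralocorticoid receptor blockers were each compared with DOCA alone. With finerenone, IC_B made up 1.05, 1.43, 2.62, 2.15 and 0.940% of all nuclei in order of library size. Every library lay below the highest DOCA library, and the largest library, with 48403 nuclei, had the lowest share. The mean was 1.64 ± 0.724% (SD, n = 5), a difference from DOCA of -0.483 points (exact permutation p = 0.365, adjusted 0.635). Among distal nephron nuclei the direction turned, and IC_B was 2.71 points above DOCA (exact permutation p = 0.325). Of the 16 types, 2 (12.5%) had an unadjusted p under 0.05, and IC_B was not among them. The difference in share was -0.689 points in untagged and -0.506 points in tagged libraries.

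Among intercalated nuclei, the finerenone libraries held 30.8, 44.8, 53.4, 57.7 and 52.8% IC_B. All 3 tagged libraries lay above the highest DOCA library, which had 49.2%, and the untagged pair lay within the DOCA range. The mean was 47.9 ± 10.6% (SD, n = 5), 8.32 points above DOCA (exact permutation p = 0.214, adjusted 0.476). Within the untagged libraries the difference was 0.596 points (2 against 3), and within the tagged ones 11.5 points (3 against 2, exact permutation p = 0.1, the smallest that these numbers allow). With each of the 10 libraries left out in turn, the difference ran from 5.80 to 12.6 points. Its unadjusted exact permutation p ran from 0.0476 to 0.389. The largest difference and the lowest p came without the untagged finerenone library of 6564 nuclei, and the next lowest p was 0.135. Within the 3 name stems under both treatments, the difference was 12.6 points on average (4.20 to 28.2, exact sign-flip permutation p = 0.25, the smallest possible). All 3 of these finerenone libraries were tagged, against 1 of the DOCA ones. In libraries of 5000 to 20000 nuclei only, the difference was 0.881 points (3 against 4, exact permutation p = 0.914). This limit left out the finerenone libraries of 40267 and 48403 nuclei, both tagged, and the untagged DOCA library of 1774 nuclei. Size and tag thus changed together, and their parts were not tested. IC_A made up 0.839 to 2.36% of all nuclei with finerenone and 2.42 to 3.65% in DOCA, which did not overlap (exact permutation p = 0.00794, adjusted over types 0.127). A lower mean share was not particular to IC_A. Principal cells had 3.55 against 6.01% and distal convoluted tubule 4.58 against 6.91% (exact permutation p = 0.0952 and 0.119), with overlapping ranges. Proximal straight tubule had a higher mean, 23.3 against 9.82% (exact permutation p = 0.143). How these shares bear on each other was not tested. That IC_A was past the unadjusted threshold and IC_B was not does not show that they moved differently, and the share of IC_B among intercalated nuclei, which compares them directly, did not pass.

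**Figure D2:**
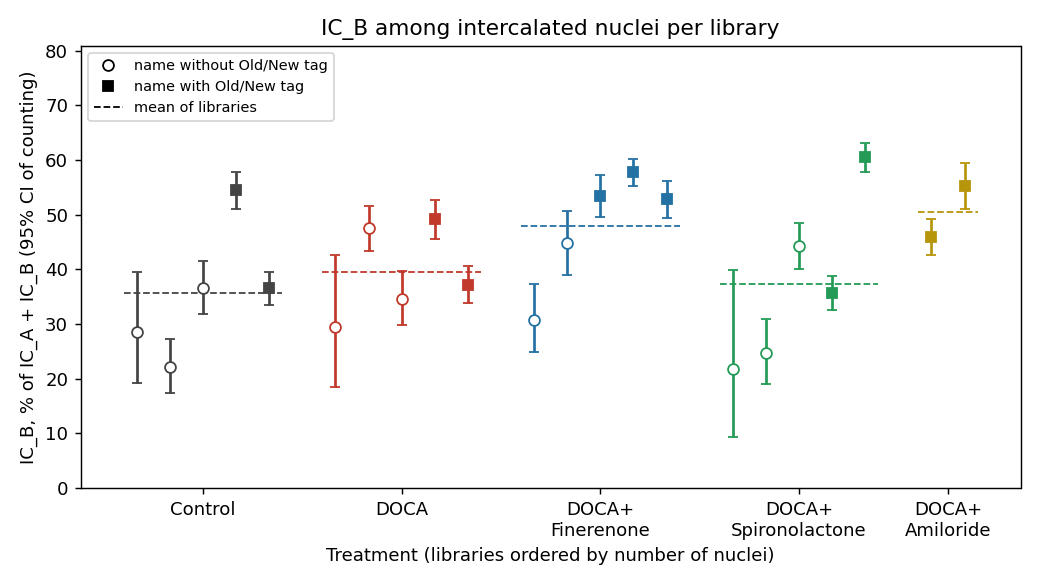
IC_B nuclei in percent of intercalated nuclei, IC_A and IC_B together (y axis), by treatment (x axis, libraries ordered by number of nuclei), with symbols, bars and dashed lines as in the plot of shares of all nuclei. Tagged libraries run from 35.6% to 60.5% and untagged ones from 21.9% to 47.5%.

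With spironolactone, IC_B made up 0.922, 0.828, 1.85, 1.51 and 2.30% of all nuclei in order of library size. The first and second of these lay below the lowest DOCA library and the others within the DOCA range, and the first came from the smallest library of the series, with 7 IC_B nuclei. The mean was 1.48 ± 0.623% (SD, n = 5), a difference from DOCA of -0.637 points (exact permutation p = 0.230, adjusted 0.737). By unadjusted p, 0 of the 16 types (0%) were under 0.05 in this exact permutation test, and IC_B was tied with principal cells for rank 4. The difference was -0.728 points in untagged and -0.501 points in tagged libraries.

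Among intercalated nuclei, the spironolactone libraries held 21.9, 24.7, 44.2, 35.6 and 60.5% IC_B. This group held both the lowest and the highest value of the series. The mean was 37.4 ± 15.7% (SD, n = 5), a difference from DOCA of -2.21 points whose direction depended on the libraries used (exact permutation p = 0.802, adjusted 0.802). Without the library of 759 nuclei it was 1.67 points above DOCA, and in pooled shares 4.33 points above. It was -6.95 points in untagged and 4.90 points in tagged libraries.

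The epithelial sodium channel blocker was tested with 2 libraries. With amiloride, IC_B made up 4.23% (of 10172 nuclei) and 2.69% (of 11144 nuclei) of all nuclei. The first was the highest of all 22 libraries, and the second lay within the DOCA range. The mean was 3.46 ± 1.09% (SD, n = 2), 1.34 points above DOCA (exact permutation p = 0.238, adjusted 0.635, smallest p possible 0.0476). In this comparison 0 of 16 types (0%) had an unadjusted exact permutation p under 0.05. Against the 2 tagged DOCA libraries the difference was 1.05 points. Without the library of 10172 nuclei, it was 0.572 points.

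Among intercalated nuclei, the amiloride libraries held 45.9 and 55.2% IC_B. The mean of 50.6 ± 6.62% (SD, n = 2) was the highest of the 5 groups, but 1 of the 2 libraries lay within the DOCA range (difference 10.99 points, exact permutation p = 0.238, adjusted 0.476). Against the tagged DOCA libraries the difference was 7.41 points. Both amiloride libraries were tagged, whereas the other groups mixed both sets, so the rank of the amiloride mean depended on the sets. Among tagged libraries the finerenone mean was higher, at 54.6%. In pooled shares over all libraries it was also higher with finerenone (52.9%) than with amiloride (49.3%). The 3 drug comparisons share the DOCA libraries. Finerenone and spironolactone were given at different doses, so they are set side by side and not compared.

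**Figure D3:**
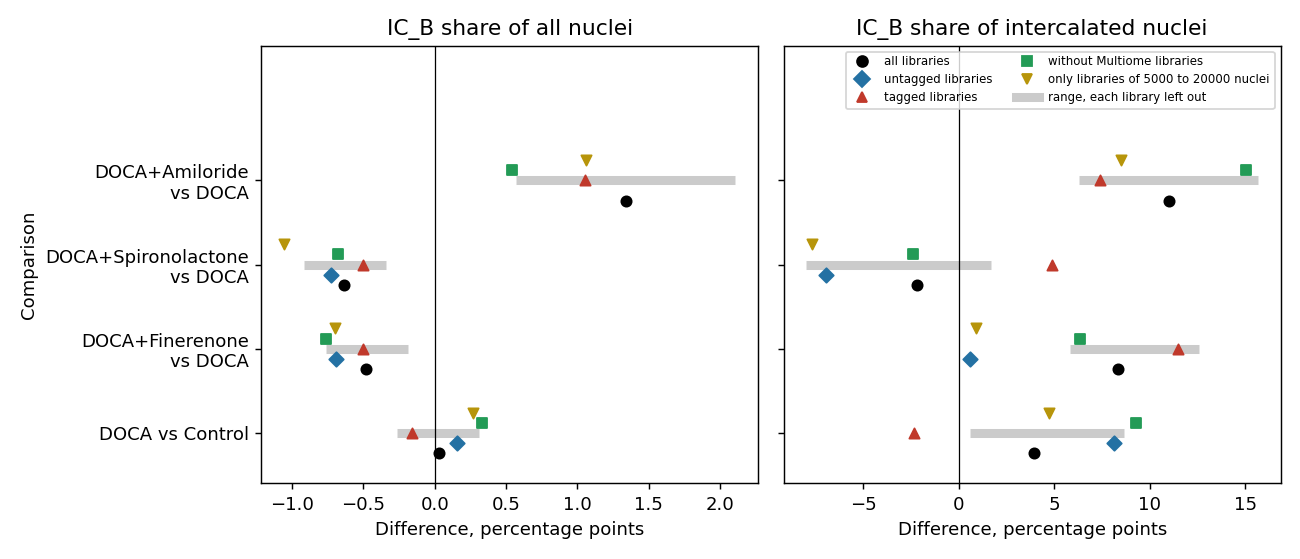
Differences in mean IC_B share (x axis, percentage points) for each comparison (y axis), of all nuclei on the left and of intercalated nuclei on the right. Symbols stand for different choices of libraries and grey bars for the range when each library is left out in turn. In the right panel the DOCA and spironolactone comparisons take both signs, and finerenone falls from 8.32 to 0.881 points when only libraries of 5000 to 20000 nuclei are used. That limit also removes the tagged finerenone libraries of 40267 and 48403 nuclei.

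The mean IC_B share of intercalated nuclei was higher in tagged than in untagged libraries in every treatment that had both sets. The means were 29.1% untagged and 45.5% tagged in control, 37.2 and 43.2% in DOCA, 37.8 and 54.6% with finerenone, and 30.2 and 48.1% with spironolactone. Single libraries of the sets overlapped except with finerenone. The highest untagged and lowest tagged values were 36.55 and 36.52% in control and 47.5 and 37.2% in DOCA. With spironolactone they were 44.2 and 35.6%, and with finerenone 44.8 and 52.8%. Over all libraries, the untagged mean was 33.2% and the tagged mean 49.0%. IC_B reached 40% or more of intercalated nuclei in 3 of 11 untagged and 8 of 11 tagged libraries. The difference between the sets was not tested, and treatments hold unequal numbers of tagged libraries.

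Library size moved with the same share. Size and tag went together, since untagged libraries held 759 to 13610 nuclei and tagged ones 10172 to 48403. Over all libraries, the relations of the share with size and with tag thus cannot be cleanly told apart. Over 22 libraries, the IC_B share of intercalated nuclei rose with the log10 number of nuclei (Pearson's r = 0.74, Spearman's rho = 0.74, permutation p adjusted over 6 relations 0.00036 and 0.00048). Without the 2 libraries farthest from the median size r was 0.67. Within untagged libraries r was 0.65 (permutation, adjusted p = 0.0844) and rho 0.85 (adjusted p = 0.0113, n = 11). Within tagged libraries r was 0.28 (permutation, adjusted p = 0.481, n = 11), so the relation did not hold within both sets. The share of IC_B in all nuclei had r = 0.27 with library size over all libraries, 0.31 in untagged and -0.73 in tagged ones, where larger libraries had lower shares (permutation, adjusted p = 0.0254). Among tagged libraries, size moved with treatment, since the amiloride libraries were the smallest and had high shares, and r was -0.51 with treatment means removed. The fall with size was not particular to IC_B. For the IC_A share of all nuclei, r with library size was -0.53 over all libraries (permutation, adjusted p = 0.0220). It was -0.42 in untagged (permutation, adjusted p = 0.296) and -0.75 in tagged libraries (adjusted p = 0.0254), the latter -0.46 with treatment means removed.

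The IC_B share moved together with that of the distal convoluted tubule (DCT), the segment upstream of the connecting tubule. Over 22 libraries r was 0.64 and rho 0.74 (permutation, adjusted p = 0.00465 and 0.00048), and r was 0.76 without the 2 libraries farthest from the median DCT share. It was 0.76 in untagged (permutation, adjusted p = 0.0228) and 0.41 in tagged libraries (adjusted p = 0.316). With treatment means removed, r over all libraries was 0.55. For IC_A, r was 0.35 and rho 0.20 over all libraries (permutation, adjusted p = 0.170 and 0.359). Within untagged libraries the r with IC_A was 0.38 (permutation, adjusted p = 0.296). Within tagged ones it was 0.66 (permutation, adjusted p = 0.0593), and -0.16 without the 2 libraries farthest from the median IC_A share. For principal cells, r was 0.30 and rho 0.37 (permutation, adjusted p = 0.217 and 0.132), with an r of 0.45 in untagged and 0.0891 in tagged libraries. Differences between these correlations were not tested. All these shares have the same denominator, and libraries that share a name stem may not be independent.

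**Figure D4:**
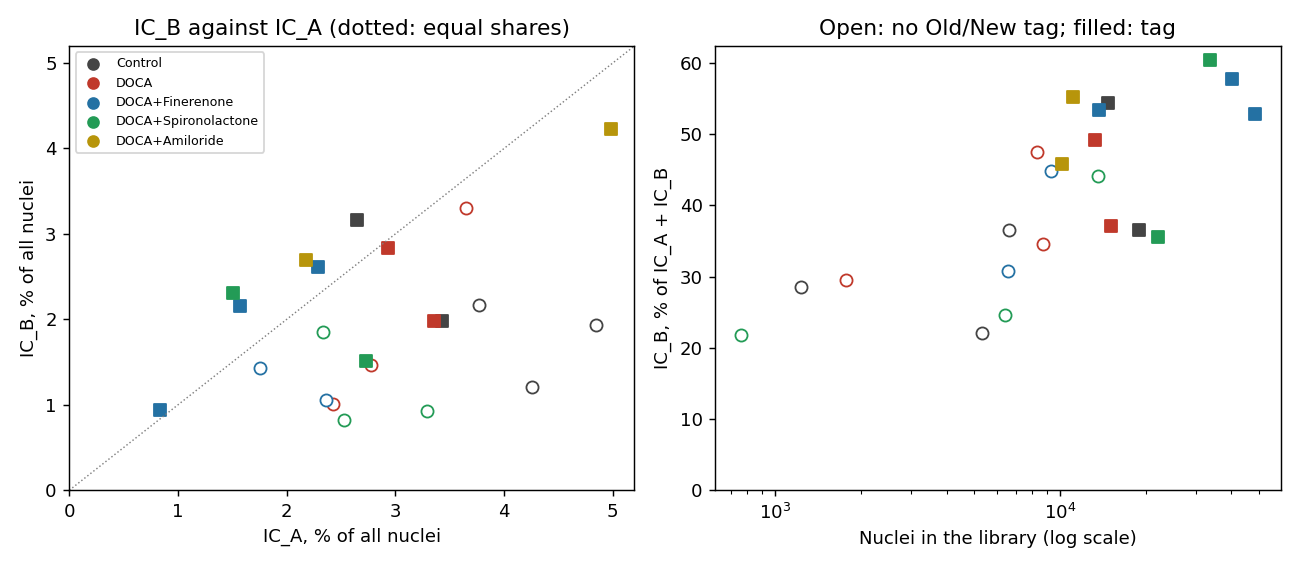
Left, IC_B against IC_A, both in percent of all nuclei, with a dotted line of equal shares. Right, IC_B in percent of intercalated nuclei against the number of nuclei in the library (log scale). Each point is a library, coloured by treatment, open without and filled with an Old or New tag. The 6 libraries above the dotted line are all tagged.

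On the deposited UMAP, IC_B formed an island of its own. Of the 30 nearest neighbors of an IC_B nucleus, 99.4% were IC_B and 0.256% were IC_A on average, and for 5801 nuclei (93.5%) all 30 were IC_B. Within 2 UMAP units of the median IC_B position, 99.6% of nuclei were IC_B. The median positions nearest to that of IC_B were those of monocytes (4.01 units), lymphocytes (4.87 units) and IC_A (5.52 units), while principal cells lay 9.94 units away. Distances between islands on a UMAP have no fixed meaning. The UMAP and the annotation come from the same expression values, so this is a description of the annotation and not a test of it.

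Only 18 IC_B nuclei (0.290%) lay more than 2 units from the median position, in 9 libraries and with at most 3 in any. Of their nearest neighbors, 26.5% were IC_A, 16.7% proximal convoluted tubule and 11.7% principal cells. Among IC_B nuclei alone, 12.2% of the 30 nearest neighbors came from the same library, against 7.44% if libraries were fully mixed, a ratio of 1.65. For treatment the ratio was 1.16, and for the tagged and untagged sets 1.03. In untagged nuclei the set ratio was 1.29. These ratios are not ranked, since a level that holds most nuclei cannot reach a high ratio and libraries lie within treatments and sets. The median distance from the center was shortest in the 2 largest IC_B collections, at 0.237 units in the finerenone library of 40267 nuclei and 0.224 units in the spironolactone library of 33683 nuclei, against 0.32 to 0.647 units in the others.

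**Figure D5:**
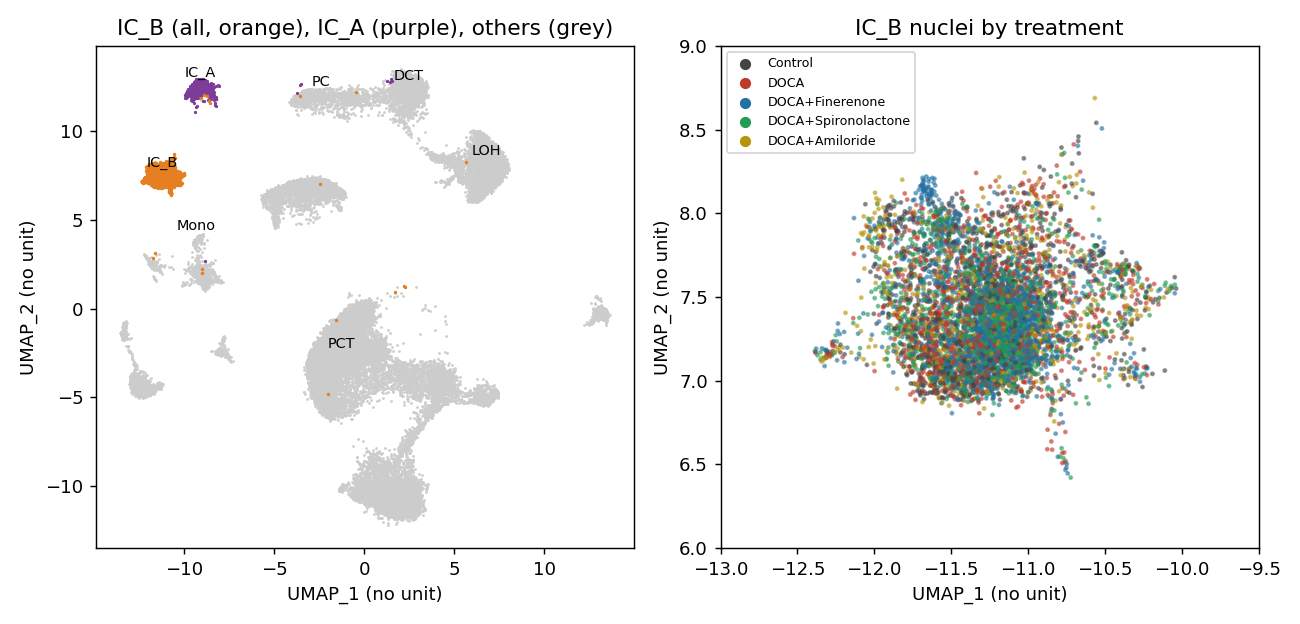
Deposited UMAP positions (both axes without unit). Left, all IC_B nuclei in orange over an evenly spaced subset of the other nuclei in grey, with IC_A of that subset in purple. Right, the IC_B island with nuclei coloured by treatment. IC_B and IC_A are separate islands, and nuclei of all 5 treatments lie across the IC_B island.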

How the data were processed

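The authors aligned reads to the rat genome rn6 with Cell Ranger (3.0.2 and 6.0.1 per the labels), with introns included. SoupX (ambient RNA), DoubletFinder (doublets), Seurat (merging and filtering) and Harmony (batch) followed, and clusters were named by their markers. UMAP coordinates, as deposited, are a score without unit, and the annotation names each nucleus's library, treatment and cell type. RNA counts per nucleus and gene values were not analysed here, so the planned comparison of RNA counts and the marker check were not made.

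Nuclei were counted per library with pandas 2.3.3, and shares given with exact (Clopper-Pearson) 95% intervals from scipy 1.17.1. Group means over libraries were compared by two-sided exact permutation tests, run because the annotation gives each library's treatment. Libraries are not matched to samples or shown to be separate rats. P-values were adjusted (Benjamini-Hochberg) over 16 types, or over 4 comparisons for shares of intercalated nuclei. Correlations used 100000 permutations, adjusted over 6 relations in each set of libraries. Neighbors were found with scikit-learn 1.9.0. The code was tested on simulated data. No gene is named by values, and Slc26a4 is named as the marker given for IC_B.

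The cell type and the tests were chosen with earlier results of these data known. Permutation within sets, shared stems as 1 value, differences within stems, the limits on library size and the relations with library size were added after shares were seen. Other alternatives were the scale, the denominator, pooled shares, leaving out libraries, and the number of neighbors.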

Additional observations from a re-analysis of the deposited data

How the results depend on the processing

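No difference between treatments passed the adjusted threshold. DOCA against control reversed for the share of all nuclei on the log2 scale (-0.0391) and in tagged libraries (-0.159 points), and for the share of intercalated nuclei in tagged libraries (-2.32 points). Finerenone against DOCA was 2.71 points higher among distal nephron nuclei, the reverse of the share of all nuclei. Spironolactone against DOCA reversed among intercalated nuclei in pooled shares (4.33 points), without libraries of under 50 intercalated nuclei (1.67 points) and in tagged libraries (4.90 points). With each library left out in turn, differences in the share of all nuclei ran from -0.265 to 0.307 (DOCA against control), -0.760 to -0.188 (finerenone), -0.913 to -0.342 (spironolactone) and 0.572 to 2.11 points (amiloride). Those in the share of intercalated nuclei ran from 0.560 to 8.65, 5.80 to 12.6, -7.99 to 1.67 and 6.31 to 15.7 points. The cause was not tested. No paired analysis was possible because no library was matched to a sample, so none carries a replicate number of the labels. Name stems tied 3 DOCA to 3 finerenone libraries, and the difference within stems was -0.480 points of all nuclei and 12.6 points of intercalated nuclei. Amiloride had no untagged library, and without the libraries read as Multiome it had 1 library and no test. The planned comparisons of RNA counts were not run. A p that missed the threshold does not show that shares were equal, and the shares of libraries with 7 to 24 IC_B nuclei are imprecise.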
